A study of Rattus norvegicus with 2 samples.

Results

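A set of 3826 sites on rat chromosomes 1 to 20 carried a strong HMGB2 peak in untreated heart muscle cells and had no HMGB2 peak nearby in phenylephrine-treated cells. They were taken from the 43721 peaks of the basal library, 42482 of which lie on these chromosomes. A basal peak was eligible with a score of at least 100 and a width below 2000 bp, which 10117 peaks met. It became a member when no phenylephrine peak of any score lay within 10 kb of either edge. The other 6291 eligible peaks are the comparison set. The members were thus selected on basal score, basal width and the position of phenylephrine peaks, and values of these 3 measures are given as description only.

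HMGB2 is a chromatin protein of the high mobility group box family. Its HMG boxes bind the minor groove with little preference for sequence and bend the DNA, and such proteins are abundant, mobile components of chromatin that can change how tightly a region is packed. Phenylephrine is an alpha-adrenergic agonist that drives hypertrophic growth of cultured cardiac myocytes. A peak is a stretch of genome where fragments pulled down with the HMGB2 antibody pile up above background, so a site without a peak is one where no pile-up was called, which does not show that the protein was absent.

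Both libraries were made by chromatin immunoprecipitation and sequencing from primary ventricular myocytes of neonatal Sprague Dawley rats, 1 day old. The basal group is 1 library of cells without treatment, and the other group is 1 library of cells given 10 µM phenylephrine for 48 h. No such time is given for the basal cells. All cells were plated for 24 h in serum and then moved to medium with an insulin, transferrin and selenite supplement, and neither group carries a genetic change. The sources used here do not say how many animals or cultures went into a library. The cells' identity could not be checked against marker genes, since only peak positions were analysed. No gene annotation or sequence of the genome build rn4 was used, so sites are given by position.

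Since each condition has a single library, cultures could not be compared with one another, the treatment was not tested, and every difference is between these 2 libraries. The intervals given are 95% intervals over peaks (Wilson for shares, exact binomial for medians). They cover counting error only, and neighbouring peaks are not independent. The phenylephrine list held 42691 peaks, 41551 of them on chromosomes 1 to 20, so the lists were close in number of peaks. They were not close in scores. The limits of score and width were met by 10117 basal and 2902 phenylephrine peaks of these chromosomes. What part this has in the absence of phenylephrine calls at members was not tested. Read depth is unknown for both libraries, and the lowest score in either list was 50, so a member may still hold phenylephrine signal below that score.

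Members made up 37.8% of the eligible basal peaks (36.9 to 38.8%). The same distance rule applied to basal peaks of any score and width left 46.5% of 42482 without a phenylephrine peak, a higher share than among the eligible peaks. Among the weaker basal peaks of the same width limit, 52.7% lay apart (52.1 to 53.3%), and among strong peaks of 2000 bp or more, 27.8% did (26.4 to 29.3%). The reverse question gave similar background shares. Of all phenylephrine peaks on these chromosomes, 48.2% had no basal peak within 10 kb. Of the 2902 phenylephrine peaks that met the limits of score and width, 794 had no basal peak within 10 kb, which is 27.4% (25.8 to 29.0%). When the basal list was held to its own 2902 highest-scoring peaks of that width, 812 lay apart from phenylephrine peaks, 28.0% (26.4 to 29.6%). At matched numbers the 2 directions thus gave shares with overlapping intervals.

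Strong describes these sites only in part. Member scores ran from 100.01 to 1172.03 with a median of 134 (133 to 136), and the lowest member ranked 13712 in the autosomal basal list, at 32.3% of its length. Only 31 members stood among the 425 peaks of the top 1%, where 223 of the other eligible peaks stood. Scores of at least 300 were found for 157 members (4.10%, 3.52 to 4.78%) and for 648 of the others (10.3%, 9.57 to 11.1%). The basal sites with the highest scores were therefore rarely members. The member share was 43.3% (42.0 to 44.6%) at scores from 100 to under 150 and 30.6% (28.4 to 32.8%) from 200 to under 300. It was 8.41% (9 of 107 peaks, 4.49 to 15.2%) from 500 to under 1000, and 2.86% (2 of 70, 0.787 to 9.83%) at 1000 or more.

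The 2 members above a score of 1000 were the outstanding sites of the set, and both were narrow. The first lay on chromosome 5 at 107768937 to 107769845, with a score of 1172.03 and a width of 909 bp. Its nearest phenylephrine peak was 30.4 kb away, had a score of 79.66 and a width of 544 bp, and the nearest on the far side was 61.0 kb away. There was no other basal peak within 10 kb of it. The second lay on chromosome 12 at 4389686 to 4390475, with a score of 1170.08 and a width of 790 bp. It stood among basal peaks, with 1 other within 10 kb and 8 within 50 kb. Phenylephrine peaks flanked it at 21.1 kb and 23.9 kb, and the nearer scored 144.05.

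After these came a gap in score to 788.71, and 9 members scored from 500 to 789. The site on chromosome 17 at 67930401 to 67931383 (score 788.71, 983 bp) and the one on chromosome 7 at 114137322 to 114138021 (score 763.37, 700 bp) were narrow as well. The first of this pair lay only just beyond the distance limit, 10.2 kb from a phenylephrine peak that scored 88.45. The chromosome 1 site at 111273880 to 111275652 (score 681.25, 1773 bp) was one-sided, with a phenylephrine peak at 12.7 kb on one side and none for 450.7 kb on the other. Chromosome 20 held a site at 38441598 to 38442622 (score 607.87, 1025 bp) with 3 other basal peaks within 10 kb and no phenylephrine peak within 40.6 kb. The chromosome 18 site at 35716072 to 35717806 (score 588.73, 1735 bp) sat between phenylephrine peaks at 10.3 and 11.2 kb. On chromosome 5 a second site at 114470456 to 114471262 (score 581.87, 807 bp) was isolated from basal peaks, with none within 50 kb, while a phenylephrine peak lay at 11.9 kb. The last 3 of these 9 were wide. They lay on chromosome 2 at 127821829 to 127823664 (score 575.32, 1836 bp), chromosome 6 at 135459476 to 135461422 (score 546.95, 1947 bp) and chromosome 11 at 66517032 to 66518717 (score 533.24, 1686 bp), at 15.0, 39.3 and 13.9 kb from a phenylephrine peak.

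The 20 highest-scoring members were spread over 14 chromosomes and had scores from 452.36 upwards. Among the remaining 9, the chromosome 16 site at 14535127 to 14536000 (score 491.43, 874 bp) was the most remote from the phenylephrine list, with its nearest peak at 377.6 kb. The chromosome 9 site at 1294690 to 1295168 (score 462.7) was the narrowest at 479 bp and had 3 other basal peaks within 10 kb. A site on chromosome 5 at 131485021 to 131486237 (score 452.71, 1217 bp) was 67.6 kb from a phenylephrine peak. The other 6 were chromosome 2 at 27011806 to 27013420, chromosome 5 at 149650914 to 149652090, chromosome 10 at 86530563 to 86532166, chromosome 7 at 23244833 to 23246741, chromosome 11 at 34560508 to 34562318 and chromosome 14 at 78044360 to 78045782. Of all 20, 10 lay within 15 kb of a phenylephrine peak, 11 had another basal peak within 10 kb, and 19 had one within 50 kb. Each of the 20 highest-scoring peaks of the comparison set, at 3100 or more, overlapped a phenylephrine peak.

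**Figure D1:**
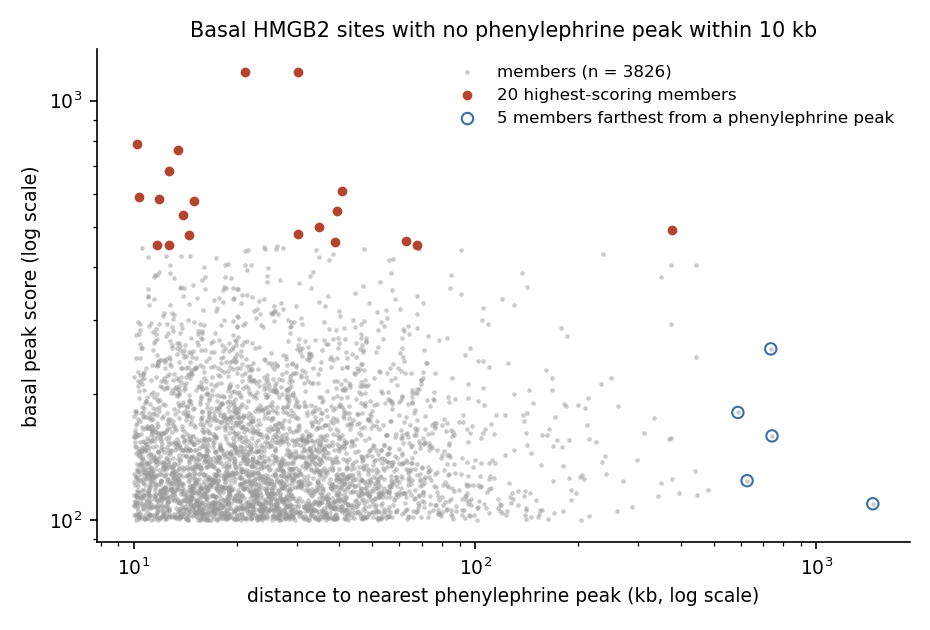
Each grey point is 1 of the 3826 members, with the distance to its nearest phenylephrine peak in kb (horizontal, log scale) and its basal score (vertical, log scale). Red points are the 20 highest-scoring members and blue rings the 5 most remote ones, which have scores of 109.35 to 255.87, so the highest scores and the largest distances fall on different sites.

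Most members were not far from phenylephrine peaks. The median distance to the nearest one was 23.3 kb, with the middle 50% of members between 15.5 and 38.9 kb. The bands from 10 to 15 kb and from 15 to 20 kb held 882 and 671 members, and the band from 20 to 50 kb held 1662, or 43.4%. Only 150 members had no phenylephrine peak within 100 kb. On the far side the nearest phenylephrine peak lay at a median of 59.96 kb, and the stretch free of phenylephrine peaks around a member had a median length of 90.3 kb. The phenylephrine peaks nearest to members were close to their whole list in score and width. The 3435 distinct peaks had a median score of 63.35 and a median width of 591 bp, against 62.31 and 585 bp for all phenylephrine peaks of these chromosomes. A score of at least 100 was held by 8.68% of them, and by 7.24% of all. The 5916 distinct phenylephrine peaks nearest to the comparison set had medians of 67.77 and 647 bp, and 17.5% scored at least 100.

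The 5 most remote members had modest scores. The most remote lay near the start of chromosome 13, at 331710 to 332979 (score 109.35), 1464 kb before the first phenylephrine peak of that chromosome. A pair on chromosome 15, at 96402980 to 96404648 (score 255.87) and 96409171 to 96410451 (score 158.71), lay 735.2 and 741.4 kb from the nearest phenylephrine peak and had no other basal peak within 500 kb. The other two were on chromosome 16 at 11741766 to 11742947 (score 124.12, 626.6 kb) and on chromosome 1 at 31559341 to 31560926 (score 180.49, 588.9 kb). All 5 had 0 phenylephrine peaks within 500 kb, and 4 of them had 0 basal peaks at 10 to 500 kb.

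The sites nearest each limit of the rule were picked for lying close to it, so they are alike in that value by choice. The members closest to the limit lay on chromosome 10 at 11885535 to 11886951, chromosome 12 at 33162490 to 33163583 and chromosome 11 at 82507252 to 82508587, at 10.004, 10.005 and 10.012 kb from a phenylephrine peak, with scores of 177.19, 158.11 and 123.1. Just outside were peaks on chromosomes 4, 2 and 1 at 9.996, 9.996 and 9.99 kb, with scores of 119.79, 103.79 and 188.95. The 3 lowest member scores were 100.01, 100.03 and 100.03, and the 3 peaks kept out by score alone had 99.99, 99.98 and 99.97. The widest members spanned 1999, 1998 and 1997 bp, and the narrowest peaks kept out by width alone 2001, 2001 and 2003 bp. In the 1 kb beyond the distance limit there were 193 members, and in the 1 kb before it 243 other eligible peaks.

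Members scored lower than strong basal sites that overlapped a phenylephrine peak, and at the same level as those that lay beside one. The median score was 134 for members and 151 (149 to 153) for the others, and it was lower for members on 20 of 20 chromosomes. The others were of more than one kind. In 3334 of them the basal peak overlapped a phenylephrine peak, with a median score of 172 (168 to 175). The 2957 that did not overlap had a median of 134 (132 to 135), which is within the interval of the members. Among members the median stayed level with distance. It was 135 (133 to 138) at 10 to 20 kb, 133 (131 to 137) at 20 to 50 kb, 134 (129 to 138) at 50 to 100 kb and 137 (126 to 155) beyond 100 kb. A score of at least 200 was reached by 38.7% of the overlapped peaks (37.1 to 40.4%), by 16.9% of the others without overlap (15.6 to 18.3%) and by 17.2% of the members (16.1 to 18.5%).

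Widths followed the same order with smaller differences. The median was 1316 bp (1298 to 1336) for members, 1443 bp (1428 to 1459) for overlapped peaks and 1328 bp (1311 to 1344) for the others without overlap. A wider peak has more chance to touch another, and the rule used width, so these values describe the sets. Members were narrower than the comparison set on 17 of 20 chromosomes. This did not hold at high scores. In the highest-scoring of 4 equal classes of eligible peaks the medians were 1546 bp (1498 to 1565) for members and 1516 bp (1492 to 1540) for others, and with a score limit of 200 members were 24 bp wider. The most remote members were the narrowest, with a median of 1103 bp (1044 to 1236) beyond 100 kb.

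Narrow peaks stood at both ends of the score range. A width below 1000 bp was found in 643 members (16.8%). The share was 18.8% (17.5 to 20.2%) of members scoring from 100 to under 200, 6.57% (4.72 to 9.09%) from 200 to under 300, 3.77% (1.48 to 9.30%) from 300 to under 400, and 19.6% (10 of 51, 11.02 to 32.5%) at 400 or more. The others went the same way, with 15.0%, 7.10%, 6.13% and 19.4% in these bands. Narrow peaks at very high scores were thus found in both sets and are not particular to the members.

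**Figure D2:**
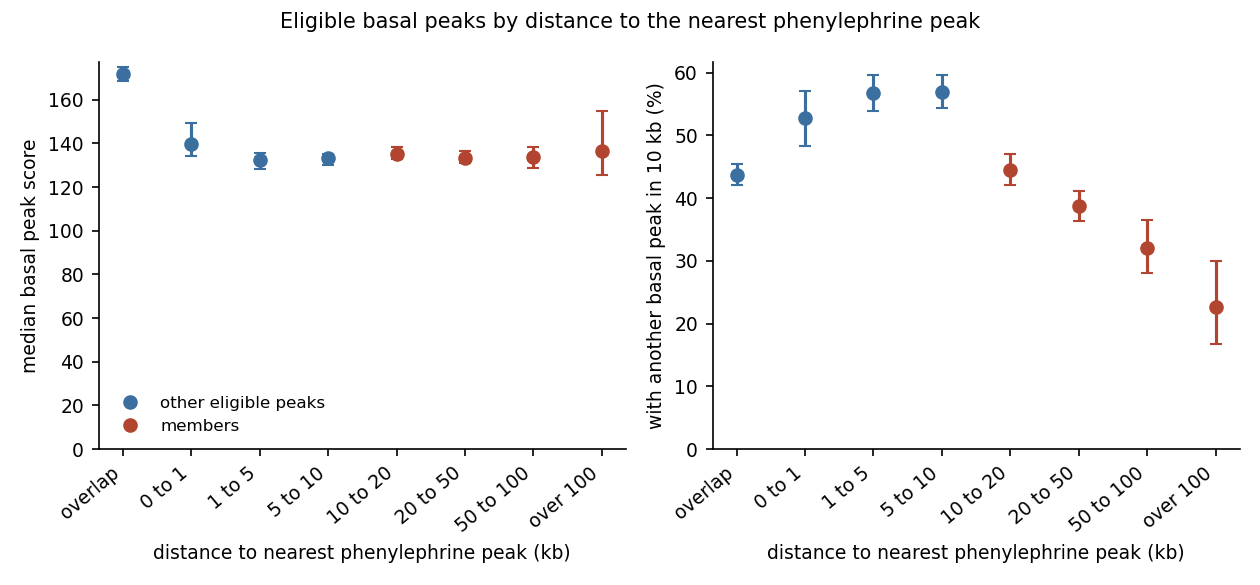
Eligible basal peaks are divided by the distance to the nearest phenylephrine peak in kb (horizontal; blue, other eligible peaks; red, members). Points are the median basal score (left) and the share of sites with another basal peak within 10 kb in percent (right), with 95% intervals; the score stands apart only for overlapped peaks, at 172, while the share with a basal neighbour falls from 57.0% at 5 to 10 kb to 22.7% beyond 100 kb.

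Members had fewer basal neighbours than the other eligible peaks. The rule did not use basal peaks around a site. Basal and phenylephrine peaks are dense in the same regions, however, so clearing phenylephrine peaks can lower basal neighbours too. Another basal peak of any score lay within 10 kb of 1517 members, 39.6% (38.1 to 41.2%), and of 3121 others, 49.6% (48.4 to 50.8%). The share was lower for members on 18 of 20 chromosomes, the exceptions being chromosome 12 (58.0% and 57.0%) and chromosome 15 (42.6% and 39.3%). At least 2 other basal peaks within 10 kb were found for 9.20% of members (8.32 to 10.2%) and 14.1% of others (13.3 to 15.0%). The difference was present in each of the 4 score classes. In the lowest class the shares were 42.8% and 54.1%, and in the highest 36.0% (32.5 to 39.6%) and 43.9% (41.6 to 46.2%). The size of the difference moved with the distance limit. Members minus others it was -3.44 percentage points at 5 kb, -9.96 at 10 kb and -17.1 at 50 kb.

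The difference was larger from the peaks that lay near a phenylephrine peak without touching it than from the overlapped ones. Of the others without overlap, 56.2% (54.4 to 58.0%) had a basal neighbour within 10 kb, and of the overlapped peaks 43.8% (42.1 to 45.5%). Members at 10 to 20 kb had a share of 44.5% (42.0 to 47.0%), with an interval that overlaps that of the overlapped peaks. The share then fell to 38.7% at 20 to 50 kb, 32.1% (28.0 to 36.5%) at 50 to 100 kb and 22.7% (16.7 to 30.0%) beyond 100 kb. The median number of basal peaks at 10 to 500 kb fell over the same classes, from 28 at 10 to 20 kb to 26, 19 and 7 (6 to 9). The number of phenylephrine peaks fell alongside, from 25 to 23, 17 and 7. The classes are cut by the distance to phenylephrine peaks, so the fall in phenylephrine peaks is largely set by the split. The split did not use basal peaks, but the 2 lists are dense in the same regions, so it can lower basal counts too. What part the split has in the fall in basal peaks was not tested. A total of 193 members had neither another basal peak nor a phenylephrine peak within 50 kb.

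Beyond the 10 kb that the rule used, the surroundings of members held nearly as many phenylephrine peaks as those of other strong sites. At 10 to 20 kb from the edges there were on average 25.5 phenylephrine peaks per Mb around members and 28.0 around others, a ratio of 0.912. At 20 to 50 kb the ratio was 0.908, at 200 to 500 kb 0.944 and at 500 to 1000 kb 0.964. Basal peaks were fewer around members by about the same factor. Their ratios in these 4 bands were 0.901, 0.908, 0.921 and 0.939. Accordingly the mix of calls did not differ much between the sets. Phenylephrine peaks made up 45.5% of all calls at 10 to 20 kb from members and 45.2% from others, and at 500 to 1000 kb 47.3% and 46.6%. The phenylephrine ratio was below 1 on 15 of 20 chromosomes at 10 to 20 kb and on 17 of 20 at 200 to 500 kb. The absence of phenylephrine peaks around members was thus limited to the window of the rule in these averages, and regions were not shifted towards basal calls.

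Around members, basal calls showed a local dip within the window of the rule. Within 10 kb of the edges there were 25.3 other basal peaks per Mb around members and 33.8 around others, a ratio of 0.750, lower for members on 19 of 20 chromosomes. Members also had more basal peaks at 10 to 20 kb (30.6 per Mb) than within 10 kb, while the others had level values of 33.8 and 34.0. The rule cleared this window of phenylephrine peaks, and basal and phenylephrine peaks are dense in the same regions. The rule can therefore lower basal calls in this window too. What part the rule has in this dip was not tested, nor what part the higher regional density around the others has in the ratio.

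**Figure D3:**
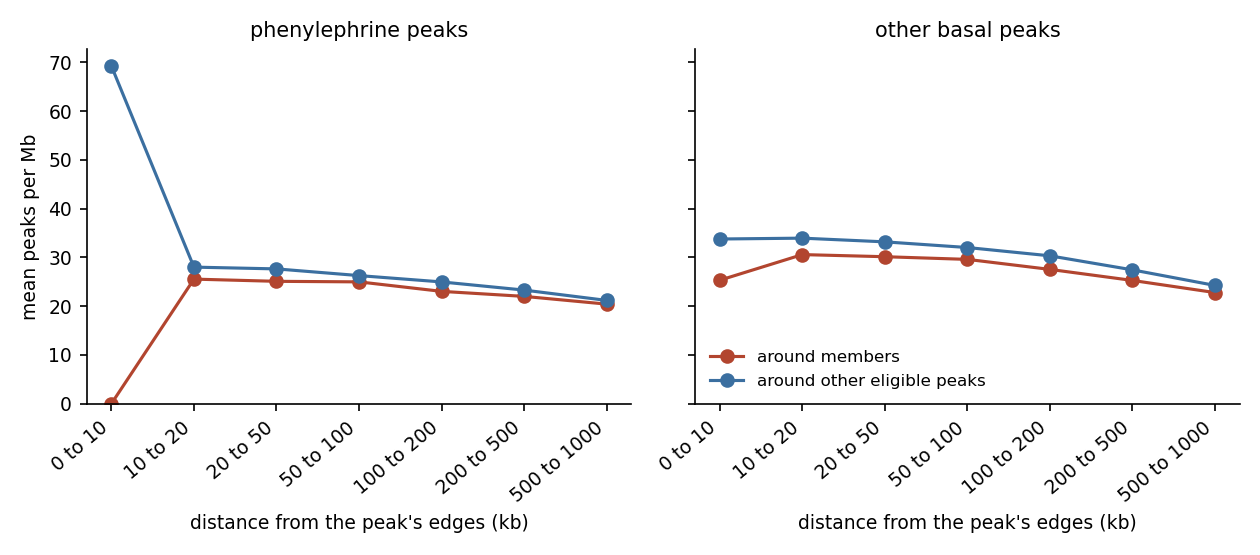
Mean number of peaks per Mb (vertical) by distance from the edges of the site in kb (horizontal) for phenylephrine peaks (left) and other basal peaks (right), around members (red) and around other eligible peaks (blue). The phenylephrine value within 10 kb is set by the rule (0 for members). Beyond it the sets run close together in both lists. The basal list dips to 25.3 per Mb within 10 kb of members, a value that the rule can also lower.

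The member share differed with the region for the weaker eligible peaks, and within counting error did not for the highest-scoring ones. Eligible peaks were cut into 4 equal classes by score, and likewise by the number of phenylephrine peaks at 10 to 500 kb. Over all scores 43.7% (41.8 to 45.6%) were members where these were fewest and 34.1% (32.3 to 36.0%) where they were most numerous. In the lowest score class, the share fell from 54.1% (50.2 to 58.0%) in the poorest regions to 39.5% (35.8 to 43.4%) in the richest. In the second score class it fell from 49.7% to 38.4%, and in the third from 45.1% to 31.9%. In the highest class, with scores of 197.13 or more, it was 28.6% (25.4 to 32.0%), 25.2%, 27.3% and 26.8% (23.5 to 30.4%) from the poorest to the richest regions. Those 4 intervals overlap, and the difference between the lowest and highest score class was larger in regions poor in phenylephrine peaks than in rich ones. Whether these slopes differ was not tested. Members have no phenylephrine peak within 10 kb by the rule, so a lower share in regions rich in such peaks is partly set by it.

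**Figure D4:**
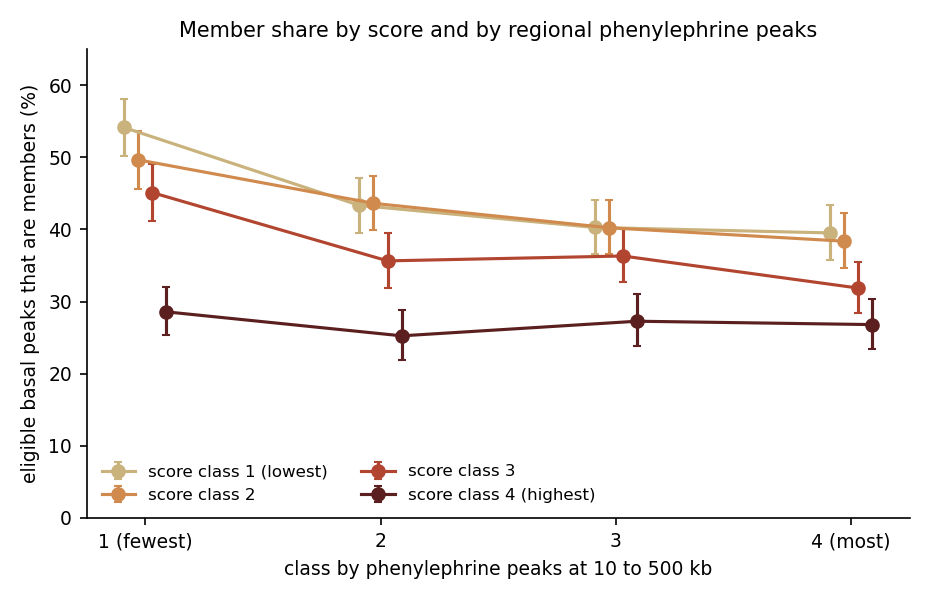
Percentage of eligible basal peaks that are members (vertical, with 95% intervals) by class of the number of phenylephrine peaks at 10 to 500 kb (horizontal), with 1 line for each class of basal score. The 3 lower score classes fall from left to right, for example from 54.1% to 39.5% in the lowest, and the highest stays between 25.2% and 28.6%.

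Members were found on every autosome in broadly similar shares. Chromosome 2 had the highest, 334 of 759 eligible peaks (44.0%, 40.5 to 47.6%), and chromosome 16 the lowest, 112 of 357 (31.4%, 26.8 to 36.4%). The interval lay above the share over all 20 chromosomes for chromosome 2 and for chromosome 4 (41.6%, 37.8 to 45.5%), the latter by a margin smaller than rounding. It lay below only for chromosome 16. With a score limit of 200 the extremes were other chromosomes, 7 at 36.8% and 18 at 17.1%. Chromosome 2 was also the autosome with the fewest peaks per Mb in both lists, at 12.6 basal and 13.4 phenylephrine peaks. Chromosome 12 had the most basal peaks per Mb (28.0) and the second most phenylephrine peaks (22.1). Of its 364 eligible peaks 41.2% (36.3 to 46.3%) were members, with an interval that includes the share over all chromosomes. It held the third highest share. That position turned with the distance limit, since chromosome 12 had the highest share at 5 kb (54.9%) and the lowest at 50 kb (3.02%). Its members lay in regions with more basal peaks than its other eligible peaks did, with medians of 37 and 33 at 10 to 500 kb. This is the reverse of the order over all chromosomes (26 and 28). By chromosome, the members' median was lower on 13 of 20, higher on 3 and tied on 4. With a score limit of 200 both medians over all chromosomes were 26. Per Mb chromosome 12 carried 3.21 members, against 2.22 on chromosome 10 and 1.29 on chromosome 2. Chromosome 16 went furthest the other way. Its members had a median of 22.5 basal peaks at 10 to 500 kb and its other eligible peaks 36, and a basal neighbour within 10 kb was found for 39.3% and 63.7%. Ends of chromosomes were not a feature of the set, since 8.96% of members and 8.84% of others lay within 5 Mb of either end of the span covered by peaks.

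**Figure D5:**
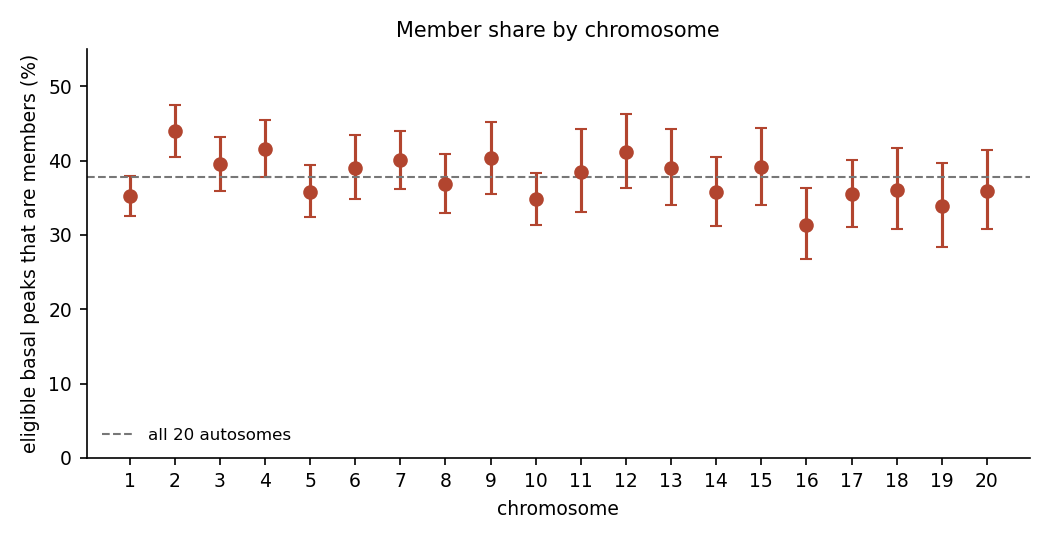
Percentage of eligible basal peaks that are members (vertical) on each of the 20 autosomes (horizontal), with 95% Wilson intervals; the dashed line is the share over all autosomes, 37.8%. Chromosome 2 lies highest at 44.0% and chromosome 16 lowest at 31.4%, and most intervals include the dashed line.

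Most members lay apart from other members. When members within 50 kb of one another were joined, 2844 had no other member in their group. The other 982 (25.7%, 24.3 to 27.1%) fell into 447 groups, of which 382 were pairs. No such share is given for the comparison set, so this is not shown to be particular to members. Another basal peak of any score lay within 50 kb of 87.8% of members. The 3826 members occupied 3231 separate stretches between phenylephrine peaks, and 2734 of these held 1 member. These stretches held a further 5666 basal peaks of any score or width, and in 698 of them the member was the only basal peak. Whether neighbouring strong sites shared the same state was read along each chromosome, by the distance from 1 eligible peak to the next. At 10 to 20 kb the next eligible peak was a member in 45.3% (39.2 to 51.6%) of cases after a member and in 33.6% (29.6 to 37.9%) after another peak. At 20 to 50 kb the shares were 37.1% (33.5 to 41.0%) and 34.8% (32.1 to 37.7%), and at 100 to 500 kb 40.2% and 38.7%, with overlapping intervals. Within 10 kb they were 79.5% and 6.16%. The windows searched around 2 sites overlap up to a distance of 20 kb, so the differences below that distance are partly set by the rule.

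The largest group had 8 members over 117.6 kb of chromosome 2, at 154316634 to 154434223. Its strongest members were at 154316634 to 154317626 (score 288.86) and 154369249 to 154370410 (score 219.83), and the remaining 6 scored from 106 to 184.65. In that stretch the basal list had 16 peaks and the phenylephrine list 1, which lay 10.018 kb from the nearest member. The next group had 7 members near the start of chromosome 9, at 1208702 to 1295168, with 16 basal peaks and 1 phenylephrine peak. It ended in the narrow peak of 479 bp (score 462.7) and also held a peak of 1364 bp at 1212471 to 1213834 with a score of 420.58. In both groups narrow peaks were common, since 5 of the 8 and 5 of the 7 members were below 1000 bp.

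A group of 6 on chromosome 1, at 243651831 to 243750955, spanned 99.1 kb with 9 basal peaks and 0 phenylephrine peaks. Its scores ran from 108.55 to 358.56, and its last member lay 108.9 kb from any phenylephrine peak. A group of 5 on chromosome 20, at 3554967 to 3607795, had 7 basal peaks and 0 phenylephrine peaks in 52.8 kb, with scores from 102.34 to 256.43. The group of 4 with the highest summed score lay on chromosome 12 at 45965160 to 46037596, with 7 basal peaks, 0 phenylephrine peaks and scores from 103.54 to 341.39. The chromosome 20 group began a run of 9 consecutive eligible peaks that were all members, at 3554967 to 3831696, in which there were 26 basal and 7 phenylephrine peaks. Another run reached 9, on chromosome 6 at 123840414 to 125107758, with 34 basal and 29 phenylephrine peaks. It spanned 1267 kb and the chromosome 20 run 276.7 kb, so the counts of the 2 runs cannot be compared directly.

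The 5 named bins of 1 Mb with the most members held 41 to 60 basal and 23 to 35 phenylephrine peaks. For scale, the medians at 10 to 500 kb around eligible peaks were 27 basal and 24 phenylephrine peaks. Members are basal peaks, so choosing bins by members partly sets their high basal counts. Chromosome 7 at 138000001 to 139000000 held 12 members and 6 other eligible peaks among 52 basal and 29 phenylephrine peaks. On chromosome 20 the bin at 3000001 to 4000000 held 11 members, 10 others, 60 basal and 35 phenylephrine peaks. There were 5 bins with 10 members, 3 of which lay on chromosome 1 at 79000001 to 80000000, chromosome 12 at 22000001 to 23000000 and chromosome 14 at 37000001 to 38000000, with 24, 31 and 23 phenylephrine peaks. Members occurred in 1636 of the 2008 bins with an eligible peak, and 623 bins held 1 member.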

How the data were processed

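The submitters' processing notes name Bowtie 0.12.7, MACS 1.4.1 and the build rn4. Per the labels' protocols, chromatin fixed in 1% formaldehyde for 10 min was sheared to 500 bp, and the libraries were sequenced from both ends. The authors deposited 1 list per library with chromosome, start, end and a score for each peak. The score is the authors' own, of unstated scale, and was used only within its list. The sources used here do not give a control library, the threshold or the depth.

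Values were computed in Python 3.11.15 with scipy 1.17.1, numpy 2.4.6 and pandas 2.3.3, and plotted with matplotlib 3.10.9. Printed starts have 1 added, and the lowest start in the files is 1, so they may be 1 bp too high. Width is end minus start, and distance is the gap between edges. The count of members was checked with bedtools 2.31.1 and was identical, and the distance code was tested on simulated data. Regional counts took peaks at 10 to 500 kb from the edges and were not corrected at chromosome ends. The reference tables at hand are of build GRCr8, so no gene or sequence was matched to the rn4 sites.

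The members, measures and alternatives were chosen with earlier results of these data known. Named regions are the 20 members with the highest score, the 5 most remote, the 5 groups (ties by summed score) and the 5 bins with the most members, and the 3 on either side of each limit. The runs, the split by distance class and the single bands were added after the data were seen. Alternatives were distance limits of 5, 20 and 50 kb, a score limit of 200, no width limit, only phenylephrine peaks scoring above their list's median, a neighbour within 50 kb, a region of 10 to 200 kb and groups within 20 kb. Chromosome X, unplaced and mitochondrial sequence were left out by the rule.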

Additional observations from a re-analysis of the deposited data

How the results depend on the processing

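Leaving out a library would remove a whole condition. No paired analysis was possible because there are only 2 libraries, 1 of each condition. Unknown depth limits every absence of a peak. Of 64 values recomputed, 25 stayed within the main interval (counts of members within 1.5 times), 38 moved beyond it in the same direction or to 0, and 1 reversed. For shares and their differences this is a 95% interval. For differences of medians it spans the opposite ends of both 95% intervals, which is wider. Differences below are members minus others unless stated, and the cause of a shift was not tested beyond what the setting changes.

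A distance limit of 5 kb made 51.1% of eligible peaks members, with a difference in median score of -22.3 and in basal neighbours of -3.44 percentage points. The member share then differed by -24.8 points between the highest and lowest score class and by -4.72 points between the richest and poorest regions, and chromosome 12 had the highest share in place of chromosome 2. A limit of 20 kb left 2273 members (22.5%), with -12.3 points for basal neighbours, medians of -4 basal and -3 phenylephrine peaks in the region, -11.4 points by score and -12.5 points by region. A limit of 50 kb left 611 (6.04%), with -9.34 in score, -134 bp in width, -17.1 points for neighbours, -11 and -8 regional peaks, -2.73 points by score and 5.59 points between the highest and lowest chromosome, then 4 and 12.

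A score limit of 200 left 659 members (26.9%). The width difference reversed to 24 bp, both regional medians differed by 0, and the share differed by only -1.96 points (-6.95 to 3.04) between rich and poor regions. The score difference was -22.1, that for neighbours -7.90 points, and chromosomes 7 and 18 were the extremes, 19.7 points apart. Without a width limit 35.2% were members, with -23.2 in score and -145 bp in width. When only phenylephrine peaks scoring above their list's median counted, 5824 peaks (57.6%) were members, with -20.3 points by score and -3.90 points by region. Counting neighbours within 50 kb gave -4.36 points, and joining members within 20 kb put 14.0% of them in groups.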

Other observations

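The same limits were also applied outside the autosomes. On chromosome X, 59 of 125 eligible basal peaks had no phenylephrine peak within 10 kb, 47.2% (38.7 to 55.9%). In unplaced sequence 118 of 296 did, 39.9% (34.5 to 45.5%). Distances in unplaced sequence run across joined fragments, so they are not distances along a chromosome.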
